A study of Mus musculus with 18 samples.

Results

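The genes examined here are the Eph receptors, ephrins, Slits, Robos, netrins and netrin receptors, which steer growing axons. The set holds 39 genes out of the 27179 in the count tables: 9 EphA receptors, 5 EphB receptors, 5 ephrin-A ligands, 3 ephrin-B ligands, 3 Slits, 4 Robos, 3 netrins, and 7 netrin receptors and related proteins (Dcc, Neo1, Unc5a, Unc5b, Unc5c, Unc5d and Draxin). The members were chosen by gene name through their Entrez identifiers, without regard to how they changed. All 39 were found in the tables and all were tested.

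Eph receptors are tyrosine kinases on the axon surface that bind ephrins on neighboring cells and mostly cause the growth cone to turn away. In the limb, lateral motor column axons choose between dorsal and ventral paths in this way. Axons of its lateral division, marked by Lhx1, carry EphA4 and avoid the ephrin-A proteins of the ventral limb, and axons of its medial division, marked by Isl1, carry EphB receptors and avoid the ephrin-B proteins of the dorsal limb. Slits are secreted by the floor plate and by motor neurons and repel axons that carry Robo receptors. Netrins attract axons through Dcc and its relative Neo1 and repel them when an Unc5 receptor is present. Draxin is a secreted repellent that binds Dcc and netrin.

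RNA was measured in 18 libraries, 3 of each of 6 groups, all from mouse embryonic stem cells of the Ainv15 background differentiated as embryoid bodies with 1 µM retinoic acid (RA) and the Hedgehog agonist SAG at 0.5 µM. In iHoxc6, iHoxc8, iHoxc9 and iHoxc10 neurons, doxycycline (Dox, 3 µg/ml for 48 h) switched on 1 copy of the named Flag-tagged Hox gene at the Hprt locus, in each case in 1 line, and cells were collected on day 4. Control neurons were the iHoxc6 line on day 4 without Dox, and progenitors were collected on day 2 from a line labeled iCre. The libraries were separate differentiations of those lines, so p-values measure the spread between differentiations and not between lines.

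Total counts ranged from 24498630 to 33168533 per library, and levels are given as CPM, counts per 1000000 counts of the library after TMM scaling. A gene with 3 counts stood at 0.0883 to 0.122 CPM depending on the library, a floor for counting error alone. Each transgene was at 213.3 CPM or more in its own line, and at most at 49.4 CPM (Hoxc6) or 0.399 CPM (the other Hox genes) in any other library. Of 7 motor neuron markers, 6 or 7 reached 1 CPM in each day 4 group. Control and iHoxc6 libraries shared a flow cell, as did iHoxc9 and iHoxc10 libraries, so in the other comparisons flow cell, line and Hox gene cannot be told apart. Between iHoxc9 and iHoxc10, line and Hox gene cannot be told apart. Every iHox library had Dox and no control library did. In each comparison with control, iHoxc6 included, Dox and the Hox gene therefore cannot be told apart. Among the progenitors, replicate 2 stood apart in that its most abundant gene took 5.76% of the counts, against 1.19% to 2.02% elsewhere. In bulk RNA, fewer cells of a type and less RNA per cell cannot be told apart.

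4 Eph receptors show the range of responses: Epha3 rose in iHoxc9 neurons, Epha7 in iHoxc8, iHoxc9 and iHoxc10, Ephb1 in all 4 iHox lines, and Epha4 in none. The bases just upstream of their annotated starts are given here 5′ to 3′ on the strand of the gene, from RefSeq (build GRCm38.p6), up to the first base of any annotated exon of the gene. They were searched on both strands for TTTAT (a core preferred by posterior Hox proteins), TAAT (the homeodomain core) and CCAAT (a general promoter element), and capitals mark the matches. TTTAT and TAAT can overlap each other.
Epha3, chr16:63864176-63864425, minus strand: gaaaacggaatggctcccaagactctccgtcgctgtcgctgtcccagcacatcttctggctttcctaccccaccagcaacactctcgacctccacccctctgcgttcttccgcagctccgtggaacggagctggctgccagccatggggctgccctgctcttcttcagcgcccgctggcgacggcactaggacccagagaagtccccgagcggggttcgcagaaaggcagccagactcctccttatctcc
Epha7, chr4:28812881-28813065, plus strand: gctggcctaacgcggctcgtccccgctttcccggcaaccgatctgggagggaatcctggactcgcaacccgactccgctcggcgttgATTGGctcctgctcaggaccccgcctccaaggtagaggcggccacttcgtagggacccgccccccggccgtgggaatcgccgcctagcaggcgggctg
Ephb1, chr9:102354694-102354943, minus strand: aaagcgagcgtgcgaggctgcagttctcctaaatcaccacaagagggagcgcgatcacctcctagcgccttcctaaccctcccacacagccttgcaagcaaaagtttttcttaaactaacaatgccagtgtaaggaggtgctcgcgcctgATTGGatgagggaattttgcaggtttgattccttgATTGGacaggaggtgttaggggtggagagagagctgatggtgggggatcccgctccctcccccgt
Epha4, chr1:77515108-77515338, minus strand: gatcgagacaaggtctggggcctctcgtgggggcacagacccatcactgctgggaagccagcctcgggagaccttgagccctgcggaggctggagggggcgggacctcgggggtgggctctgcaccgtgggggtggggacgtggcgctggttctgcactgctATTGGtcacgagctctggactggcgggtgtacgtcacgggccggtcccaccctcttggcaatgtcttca
None of these 4 windows holds TTTAT or TAAT. CCAAT occurs once in Epha7, 2 times in Ephb1, once in Epha4 and 0 times in Epha3. Among 32851 windows in RefSeq promoters of the same length, TTTAT is found in 37.3% at 250 bases and 30.2% at 185 bases, TAAT in 54.9% and 48.3%, and CCAAT in 33.8% and 25.9%. All 4 windows are rich in G and C, from 54% in Ephb1 to 69.7% in Epha7. These matches describe the letters only, and sequence elsewhere around these genes was not searched.

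Per kilobase of exon, the most abundant members in control neurons were a netrin, Slits and the receptor Unc5a. Exon length merges all GENCODE transcripts of a gene, 25.4 kb for Slit2 and 6.07 kb for Slit3, so this order depends on the annotation. In CPM, which does not use length, Slit2 was highest (624.4 ± 69.5), above Ntn1 (359.7 ± 48.8) and Slit3 (213.9 ± 28.6). Per kilobase of exon, Ntn1 was highest (57.3 ± 7.77 CPM per kb, SD, n = 3), followed by Slit3 (35.2 ± 4.71), the receptor Unc5a (27.2 ± 9.63) and Slit2 (24.6 ± 2.73). The spread of Unc5a covered the means of both Slit3 and Slit2, and Slit3 and Slit2 differed by more than their summed SDs. Ephb2 was the highest Eph receptor (13.2 ± 3.52 CPM per kb) and Epha4 the highest EphA receptor (6.29 ± 1.53 CPM per kb). In CPM, 34 of the 39 members reached 1 and 26 reached 10 in control. Epha6, Efna1 and Robo4 stayed under 1 CPM in every group, and Epha1 in every day 4 group, so changes of these 4 rest on few counts. Robo4 is an endothelial receptor, and the summed level of 6 endothelial markers was 0.749 to 1.9 CPM in the day 4 libraries.

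Few guidance genes passed the test against control in iHoxc6 and iHoxc8 neurons, and 15 or 16 did in iHoxc9 and in iHoxc10 neurons. A gene passed the test at an adjusted p under 0.01, in edgeR's quasi-likelihood test with Benjamini-Hochberg adjustment over 20944 genes. Against control, 2 of 39 members passed in iHoxc6 neurons (0.587% of all genes tested passed, 0.363% higher and 0.224% lower) and 3 in iHoxc8 neurons (2.12% of all genes, 1.03% higher and 1.09% lower). All 5 of these were higher. In iHoxc9 neurons 16 passed (14.1% of all genes, 6.95% higher and 7.13% lower), 14 higher and 2 lower. In iHoxc10 neurons 15 passed (14.4% of all genes, 6.67% higher and 7.75% lower), all higher. These shares depend on the genes counted. A stricter filter, at least 10 counts in at least 3 libraries, kept 15638 genes. With it 0.691%, 2.14%, 19.4% and 20% of genes passed in iHoxc6, iHoxc8, iHoxc9 and iHoxc10. Among genes spanning over 100 kb at a mean of at least 1 CPM, 18 of them members, the shares were 1.87%, 4.38%, 31.2% and 29.3%. Cell type markers moved in the same comparisons. Of 7 motor neuron markers, 4 were lower than control in iHoxc9 and 2 in iHoxc10, with sums of 544.5 to 570.8 CPM in control, 298.5 to 323.7 in iHoxc9 and 486.0 to 546.9 in iHoxc10. Of 7 ventral progenitor markers, 4 passed in iHoxc9 (2 higher, 2 lower) and 4 in iHoxc10 (1 higher, 3 lower). Their part in the counts of guidance genes was not tested. The median log2 fold change of the 39 members was 0.16, 0.23, 0.44 and 0.54 in the 4 lines in that order, and that of all genes lay between 0.00 and 0.02. These 4 comparisons share the control libraries. The iHoxc6 count became 4 without control replicate 2 (5.2% of all genes). It became 1 without control replicate 1 (0.301%) or iHoxc6 replicate 2 or 3 (0.334% each). It became 0 without control replicate 3 (0.31%) or iHoxc6 replicate 1 (0.215%). The iHoxc8 count became 7 without control replicate 2 (7.52% of all genes) and 6 without iHoxc8 replicate 2 (3.36%). It became 1 without control replicate 3 (0.425%) or iHoxc8 replicate 1 (0.559%) or 3 (0.592%). The share of all genes moved in the same direction as these counts. Changes beyond 4-fold were seen for Epha3, Epha7 and Dcc in iHoxc9 neurons (2.7% of all genes) and for Epha7 in iHoxc10 neurons (1.48% of all genes). No member passed 4-fold in iHoxc6 (0.115% of all genes) or iHoxc8 neurons (0.22% of all genes).

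**Figure D1:**
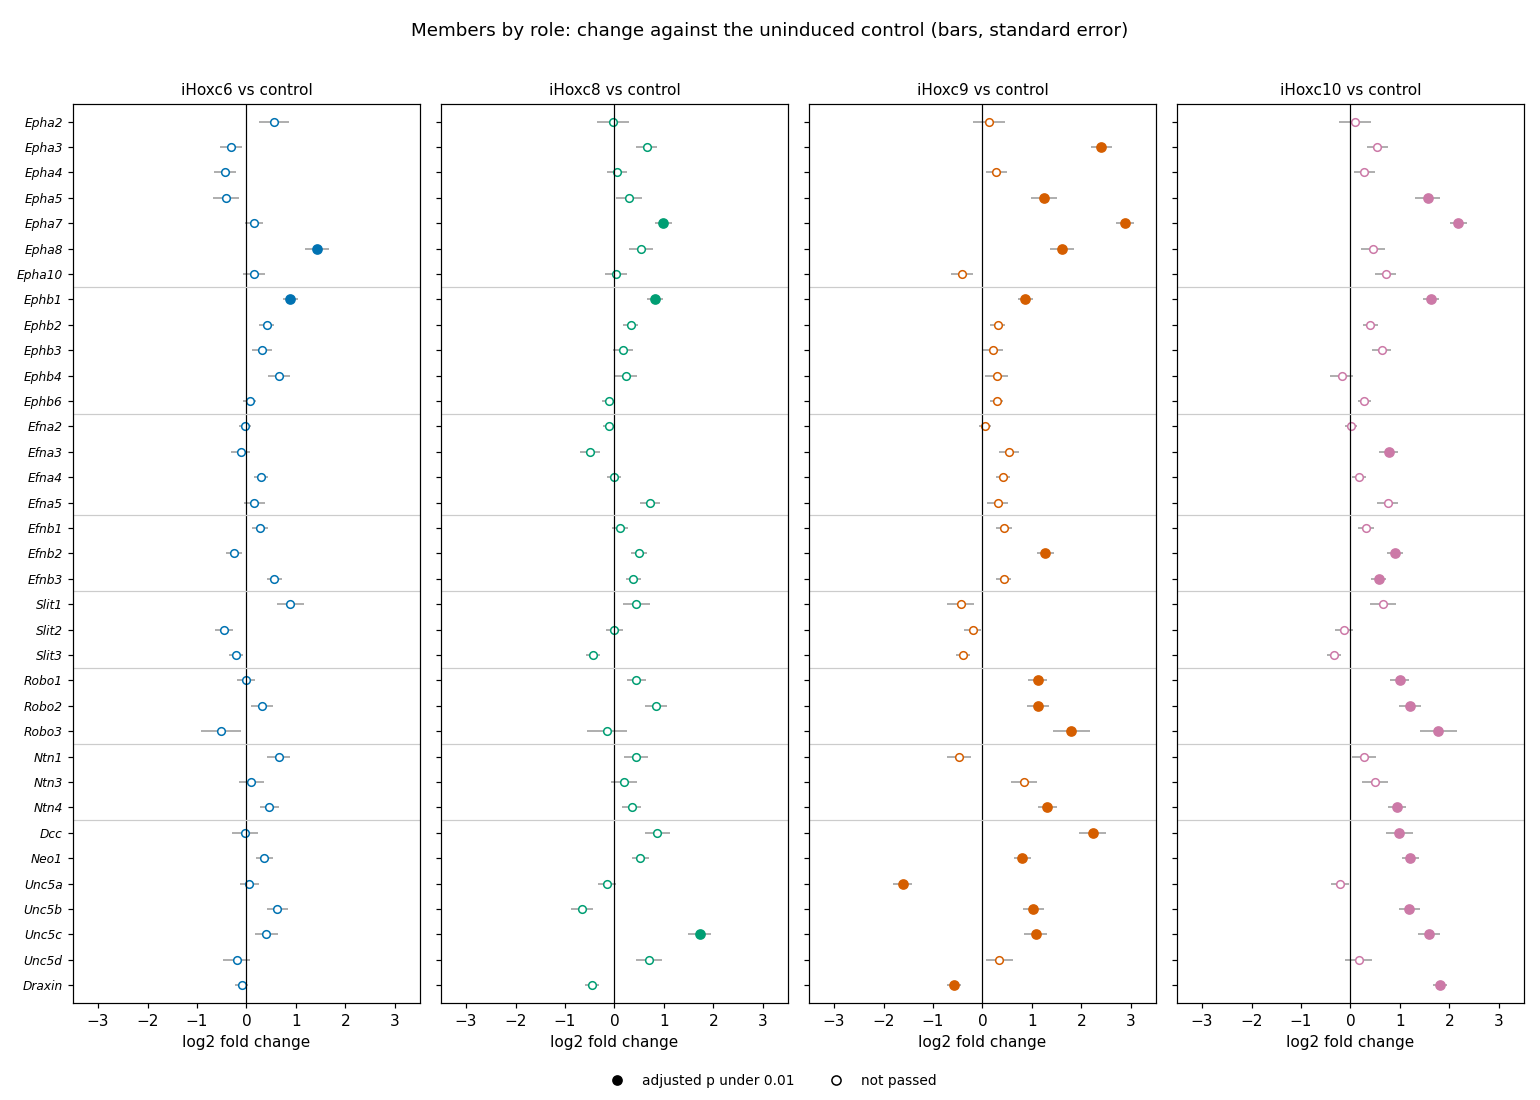
Log2 fold changes against control (x axis) of the members, ordered by role with gray lines between roles, in 1 panel per iHox line. Bars are standard errors, filled points passed at an adjusted p under 0.01, and the 4 members under 1 CPM in every day 4 group are left out. Filled points number 2, 3, 16 and 15 from left to right, and those below 0 are Unc5a and Draxin in iHoxc9.

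Among the EphA receptors, 4 of 9 passed in iHoxc9 neurons (14.1% of all genes), all higher. In iHoxc10 neurons 2 of 9 passed, both higher. That is 22.2%, beside 14.4% of all genes and 20% with the stricter filter. Epha7, a receptor for ephrin-A ligands that also has short forms lacking the kinase, rose the most. Its level was 6.49, 4.89 and 4.38 CPM in the control libraries, 12.1, 8.71 and 10.6 in iHoxc8, 39.7, 41.9 and 34.8 for iHoxc9, and 27.8, 24.0 and 19.6 in iHoxc10. No library of these 3 lines overlapped the control libraries, and every iHoxc9 library stood above every iHoxc10 library. The log2 fold change was 2.88 for iHoxc9 (standard error 0.18, adjusted p = 1.08e-10), 2.18 for iHoxc10 (0.17, adjusted p = 1.48e-08) and 0.99 for iHoxc8 (0.17, adjusted p = 0.00176). In iHoxc6 neurons Epha7 was at 5.75, 5.45 and 6.32 CPM, within the range of control. The iHoxc8 call was lost without control replicate 3 (adjusted p = 0.0229) or without iHoxc8 replicate 1 (0.018) or 3 (0.0114).

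Epha3 (chr16:63543532-63864175) rose in iHoxc9 neurons and passed against control in no other line. It went from 4.72, 3.89 and 2.66 CPM in control to 20.5, 20.7 and 18.5 CPM. That is a 5.28-fold change (log2 2.40, standard error 0.21, adjusted p = 2.67e-08), with no overlap. In iHoxc10 neurons it was at 5.46, 5.84 and 5.15 CPM, above the control libraries but short of the threshold (log2 0.54, adjusted p = 0.0714). Epha5 rose in both posterior lines. It went from 12.7, 12.5 and 8.08 CPM in control to 29.1, 26.8 and 23.3 in iHoxc9 (log2 1.25, standard error 0.26, adjusted p = 0.00127) and 38.8, 32.0 and 27.4 in iHoxc10 (log2 1.56, 0.26, adjusted p = 0.000168). Without control replicate 3, the iHoxc9 change of Epha5 no longer passed (adjusted p = 0.0166).

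Epha8 had a different pattern, being higher in iHoxc6 and iHoxc9 neurons. It was at 4.53, 2.62 and 2.81 CPM in control, 10.5, 9.58 and 6.88 in iHoxc6, and 11.7, 9.42 and 9.51 in iHoxc9. On the log2 scale it rose by 1.43 in iHoxc6 (standard error 0.24, adjusted p = 0.00187) and by 1.61 in iHoxc9 (0.24, adjusted p = 3.73e-05). In iHoxc8 (5.24, 4.84 and 4.41 CPM) and iHoxc10 (5.08, 4.59 and 4.13 CPM) the libraries overlapped those of control. The iHoxc6 call was lost without control replicate 3 (adjusted p = 0.0193) or without iHoxc6 replicate 1 (0.0198). Epha10, a kinase-dead family member, passed against control in none of the lines, with 30.5, 15.7 and 32.3 CPM in control, 22.4, 18.8 and 17.5 in iHoxc9, and 45.9, 46.2 and 36.2 in iHoxc10. Without control replicate 2, its decrease in iHoxc9 passed (log2 -0.68, adjusted p = 0.00766).

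Epha4, the receptor of the lateral division, passed against control in none of the lines. Its libraries were at 47.0, 64.4 and 40.6 CPM in control, 38.9, 28.5 and 44.9 in iHoxc6, 57.5, 34.0 and 66.3 in iHoxc8, 67.6, 54.8 and 62.3 for iHoxc9, and 67.1, 61.6 and 56.1 in iHoxc10. All 4 iHox groups overlapped control. The log2 fold changes were -0.44 (95% interval -0.86 to -0.01, adjusted p = 0.248) in iHoxc6, 0.05 (-0.37 to 0.48) for iHoxc8, and 0.28 (-0.14 to 0.70) for iHoxc9 as for iHoxc10. Between iHoxc9 and iHoxc10 the difference was -0.0012 (-0.42 to 0.42).

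Of 8 other genes of the limb choice, 6 differed between iHoxc9 and iHoxc10 neurons (4.99% of all genes), 5 lower and 1 higher in iHoxc9. Lhx1, the transcription factor of the lateral division that is known to act upstream of EphA4, was at 66.2 ± 10.9 CPM in iHoxc10 and 3.87 ± 0.17 CPM in iHoxc9 (log2 difference -4.10, standard error 0.16, adjusted p = 7.83e-14). Aldh1a2, the retinoic acid synthesis enzyme of limb-level motor neurons, was at 183.7 ± 20.1 CPM in iHoxc10 and 21.6 ± 4.63 CPM in iHoxc9 (adjusted p = 1.98e-09). Isl1 was also lower in iHoxc9 (52.6 ± 6.43 against 126.7 ± 8.65 CPM, adjusted p = 0.002), as were Foxp1 (log2 -1.22) and Gfra1 (log2 -1.33). Isl2, a motor neuron transcription factor, went the other way, at 46.4 ± 3.75 CPM in iHoxc9 and 7.45 ± 1.54 CPM in iHoxc10 (log2 2.64, standard error 0.24, adjusted p = 7.04e-08). Ret, the GDNF receptor that acts with EphA4 in the dorsal limb choice, was at 217.9 ± 3.36 CPM in iHoxc9 and 277.8 ± 18.6 CPM in iHoxc10 (adjusted p = 0.0857). Epha4 stood at the same mean, 61.6 CPM, in lines that differed in Lhx1 and Aldh1a2. Any relation of Epha4 to these genes in these mixed cultures was not tested.

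Among the 5 EphB receptors 1 passed in each iHox line (0.587%, 2.12%, 14.1% and 14.4% of all genes in iHoxc6, iHoxc8, iHoxc9 and iHoxc10). With the stricter filter 19.4% and 20% of genes passed in iHoxc9 and iHoxc10, close to the 20% that 1 of 5 makes. The receptor that passed was Ephb1 (chr9:101922128-102354693), the receptor of the medial division. It was at 29.0, 36.1 and 29.8 CPM in control, 57.3, 58.0 and 60.9 in iHoxc6, 55.4, 56.6 and 55.5 in iHoxc8, 53.9, 60.4 and 59.4 for iHoxc9, and 103.8, 91.7 and 98.4 in iHoxc10. All 12 induced libraries were above all 3 control libraries, and the iHoxc10 libraries were above all others. The log2 fold changes were 0.89, 0.82, 0.87 and 1.63 in iHoxc6, iHoxc8, iHoxc9 and iHoxc10, each with a standard error of 0.16 (adjusted p = 0.00318, 0.0038, 0.000334 and 2.67e-07). In iHoxc6 the call was lost without control replicate 1 or 3 or any iHoxc6 library (adjusted p at most 0.0272), and in iHoxc8 without control replicate 1 or 3 or iHoxc8 replicate 1 or 3 (at most 0.0348).

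The other EphB receptors passed in none of the lines. Ephb2, the most abundant of them, was at 143.4, 217.3 and 137.9 CPM in control and at 194.1 to 230.8 CPM in the 12 induced libraries. Control replicate 2 was the high control library for Ephb2, Ephb3 and Ephb4, and without it Ephb2 passed as higher in each of the 4 lines (log2 0.65, 0.57, 0.55 and 0.64 in iHoxc6, iHoxc8, iHoxc9 and iHoxc10). Without it Ephb3 passed in iHoxc10 (log2 0.91, adjusted p = 0.00159) and Ephb4 in iHoxc6 (log2 1.02, adjusted p = 0.00449). Leaving out that library also raised the share of all genes that passed. It became 5.2%, 7.52%, 19.7% and 18% in iHoxc6, iHoxc8, iHoxc9 and iHoxc10. The same library had the highest summed level of ventral progenitor markers among the controls (650.0 CPM, against 359.1 and 305.7), whose part in these values was not tested.

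**Figure D2:**
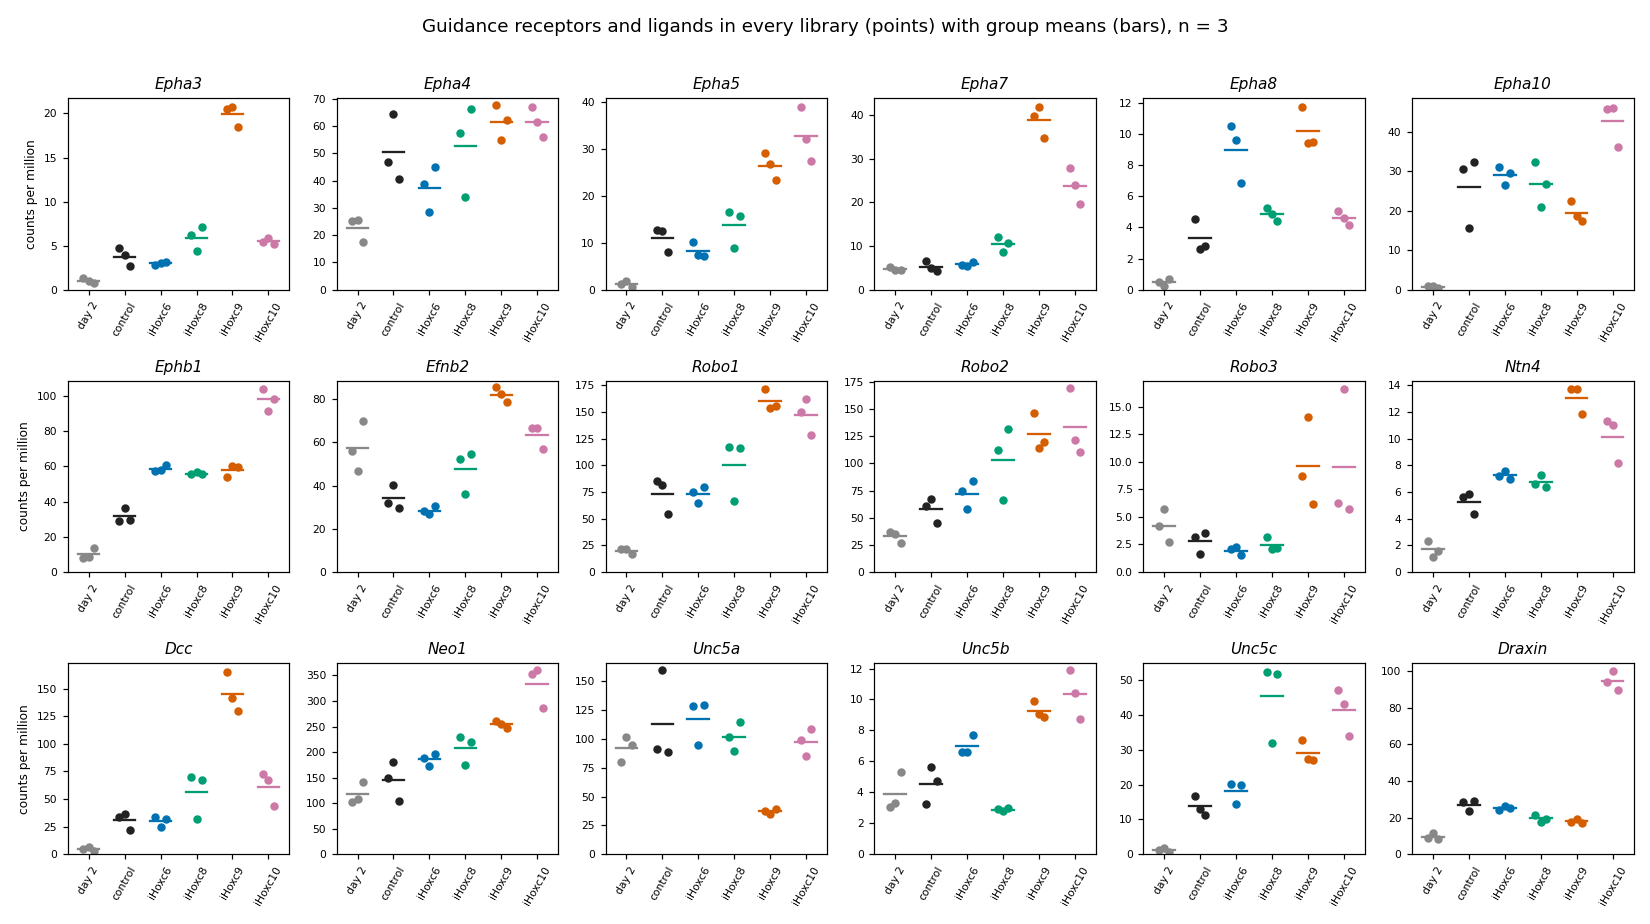
Level in CPM (y axis, from 0) of the 18 members given with values in every library, in day 2 progenitors, control and the 4 iHox lines (x axis). Each point is a library and each bar a group mean (n = 3). Epha3, Epha7 and Dcc are highest in iHoxc9, Ephb1 and Draxin in iHoxc10, Unc5a is lowest in iHoxc9, and Epha4 overlaps between all day 4 groups except iHoxc6 against iHoxc9 and iHoxc10.

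Among the 8 ephrin ligands, 1 passed in iHoxc9 neurons (14.1% of all genes) and 3 passed in iHoxc10 neurons (14.4% of all genes). In iHoxc9 the share of ephrins, 12.5%, did not exceed that of all genes. Efnb2, a ligand for EphB receptors and for EphA4, was at 32.1, 40.4 and 29.7 CPM in control, 85.5, 82.1 and 78.4 in iHoxc9, and 66.6, 66.7 and 57.0 in iHoxc10. Both posterior lines lay fully above control, with a 2.41-fold change in iHoxc9 (adjusted p = 6.59e-06) and a 1.86-fold change in iHoxc10 (adjusted p = 0.000392). Efnb2 is also a marker of arterial endothelium. The 6 general endothelial markers summed to at most 1.53 CPM in these 2 lines, and their part in the Efnb2 values was not tested. Efnb3 (1.49-fold, adjusted p = 0.0071) and Efna3 (1.70-fold, adjusted p = 0.00649) rose in iHoxc10 neurons. Both of these calls were lost without control replicate 2 or iHoxc10 replicate 1 or 2, that of Efnb3 also without control replicate 1 or 3, with adjusted p up to 0.0516 for Efnb3 and 0.0297 for Efna3. The other ephrins, Efna1, Efna2, Efna4, Efna5 and Efnb1, passed in none of the 4 lines.

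None of the Slits passed against control in any line. Slit2 was at 547.0 to 681.5 CPM in control and at 450.3 to 667.2 CPM in the induced libraries, and Slit3 at 193.5 to 246.5 and 135.6 to 196.0 CPM. For Slit3 the libraries of iHoxc8 (135.6 to 174.0), iHoxc9 (144.4 to 172.5) and iHoxc10 (161.3 to 181.3) all lay below control, and iHoxc6 overlapped it. For Slit2 only iHoxc6 (450.3 to 466.4) lay fully below control. By DESeq2, Slit3 was lower than control in iHoxc8 (log2 -0.46, adjusted p = 0.00635) and iHoxc9 (log2 -0.43, adjusted p = 0.00593). Slit1, which the floor plate also makes, was at 84.8, 120.0 and 60.6 CPM in control, 165.0, 189.9 and 136.2 in iHoxc6, and 66.7, 76.6 and 52.2 in iHoxc9. The iHoxc6 libraries lay above and the iHoxc9 libraries within or below the control range, and the direct difference passed (log2 1.33, standard error 0.27, adjusted p = 0.00136). Both Slit2 and Slit3 host a microRNA gene of motor neurons between their exons, Mir218-1 at chr5:48223942-48224051 and Mir218-2 at chr11:35616816-35616925, both on the plus strand. The mature microRNA is the same from either gene and is shown, from RefSeq, because its genes lie within those of the most abundant Slits. Capitals mark the seed, bases 2 to 8.
mmu-miR-218-5p: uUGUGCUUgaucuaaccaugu
The libraries were made from polyadenylated RNA and do not measure the mature microRNA.

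The Robo receptors of these Slits rose in both posterior lines: 3 of 4 passed in iHoxc9 (14.1% of all genes) and 3 of 4 in iHoxc10 neurons (14.4% of all genes). With the trend with genomic span removed from each library Robo2 passed in neither line (log2 0.58 and 0.51, adjusted p = 0.0103 and 0.0234) and Robo1 not in iHoxc10 (log2 0.39, adjusted p = 0.0339). Robo1, which keeps motor and commissural axons away from Slit sources, was at 85.1, 81.5 and 54.1 CPM in control, 171.5, 153.8 and 155.5 in iHoxc9, and 149.5, 162.5 and 128.5 in iHoxc10. Robo2, with related functions, was at 61.1, 67.4 and 45.3 CPM in control, 146.6, 114.5 and 119.7 in iHoxc9, and 169.0, 121.2 and 110.5 in iHoxc10. For both genes no posterior library overlapped control. The log2 fold changes of Robo1 were 1.12 in iHoxc9 (adjusted p = 0.000174) and 1.00 in iHoxc10 (adjusted p = 0.00058), and those of Robo2 1.13 (adjusted p = 0.000663) and 1.21 (adjusted p = 0.000382).

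Robo3, which is known in commissural neurons, rose 3.48-fold in iHoxc9 (adjusted p = 0.00148) and 3.43-fold in iHoxc10 (adjusted p = 0.00162), but from low and uneven levels. Its libraries were at 3.18, 1.62 and 3.52 CPM in control, 8.72, 14.1 and 6.17 in iHoxc9, and 6.23, 16.6 and 5.71 in iHoxc10. In both lines replicate 2 was the highest. Without that replicate the adjusted p became 0.0162 in iHoxc9 (log2 1.42) and 0.0315 in iHoxc10 (log2 1.07). Without iHoxc10 replicate 1 or 3 the iHoxc10 change was past 4-fold (log2 2.01 and 2.08). The summed level of 6 dorsal commissural interneuron markers was 1.66 to 2.55 CPM in control, 4.62 to 5.80 CPM in iHoxc9 and 6.76 to 7.17 CPM in iHoxc10, with 1 of 6 at 1 CPM or more, and the sum of 6 ventral interneuron markers 2.89 to 3.31, 16.7 to 21.5 and 6.40 to 10.6 CPM. Their part in the result was not tested.

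By number, more netrin receptors passed than members of any other role in both posterior lines. Among Dcc, Neo1, the 4 Unc5 receptors and Draxin, 6 of 7 passed in iHoxc9 neurons (14.1% of all genes), 4 higher and 2 lower. In iHoxc10 neurons 5 of 7 passed (14.4% of all genes), all higher. Dcc was at 34.1, 36.2 and 22.4 CPM in control, 165.1, 141.7 and 129.8 in iHoxc9, and 72.9, 67.1 and 43.7 in iHoxc10. The 3 groups did not overlap. Its change was 4.71-fold in iHoxc9 (log2 2.23, standard error 0.27, adjusted p = 2.78e-06) and 1.98-fold in iHoxc10 (log2 0.99, 0.27, adjusted p = 0.0087). The iHoxc10 call was lost without control replicate 1 (adjusted p = 0.0185) or 3 (0.0597) or iHoxc10 replicate 1 (0.0514) or 2 (0.0344). In iHoxc8 neurons Dcc was at 69.9, 32.2 and 67.1 CPM, and replicate 2 lay within the control range. Without that library the increase passed (log2 1.14, adjusted p = 0.00706).

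Neo1, the relative of Dcc that binds netrins and repulsive guidance molecules, was at 149.4, 180.3 and 104.9 CPM in control, 261.7, 254.4 and 247.7 in iHoxc9, and 353.2, 361.5 and 287.2 in iHoxc10. It rose by 0.81 on the log2 scale in iHoxc9 (adjusted p = 0.00135) and by 1.21 in iHoxc10 (adjusted p = 3.25e-05). Without control replicate 3 its iHoxc9 change no longer passed (adjusted p = 0.0173).

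The 4 Unc5 receptors, which turn the response to netrin into repulsion, did not move as a group. Unc5a, the most abundant, fell in iHoxc9 neurons, from 91.4, 159.5 and 88.7 CPM in control to 37.5, 35.1 and 38.9 CPM. The log2 fold change was -1.61 (standard error 0.19, adjusted p = 1.91e-06), and the other 9 induced libraries lay between 85.1 and 129.2 CPM. Unc5c rose in the 3 lines other than iHoxc6. Its levels were 16.7, 13.1 and 11.4 CPM in control, 52.3, 31.9 and 51.8 in iHoxc8, 32.7, 27.3 and 27.1 for iHoxc9, and 47.1, 43.2 and 33.8 in iHoxc10. These are changes of 3.29-fold (adjusted p = 0.000161), 2.11-fold (adjusted p = 0.00153) and 3.00-fold (adjusted p = 4.03e-05), and none of the 9 libraries overlapped control. Without control replicate 3 the iHoxc9 change of Unc5c no longer passed (adjusted p = 0.0176). Unc5b was low, at 3.24, 5.66 and 4.72 CPM in control, 9.90, 9.04 and 8.88 in iHoxc9, and 11.9, 10.4 and 8.71 in iHoxc10, and rose 2.05-fold (adjusted p = 0.00104) and 2.28-fold (adjusted p = 0.000284). Unc5d passed in none of the lines.

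Draxin (chr4:148098437-148131139) moved in opposite directions in the posterior lines. It was at 28.5, 23.4 and 28.8 CPM in control, 17.6, 19.4 and 16.9 in iHoxc9, and 94.1, 99.7 and 89.4 in iHoxc10. The iHoxc10 libraries stood 3.51-fold above control (log2 1.81, standard error 0.14, adjusted p = 6.54e-09). The iHoxc9 libraries stood below it (log2 -0.58, 0.14, adjusted p = 0.00337), a call that was lost without control replicate 1 or 3 or iHoxc9 replicate 1 or 3 (adjusted p at most 0.0195). In iHoxc8 neurons Draxin was at 21.5, 17.6 and 19.5 CPM (log2 -0.46, adjusted p = 0.0384), which passed without control replicate 2 (log2 -0.55). Draxin overlaps Mad2l2 and Unc5a overlaps Hk3 in the annotation, as Efna3, Epha10, Ntn4, Slit1, Ntn3 and Epha1 overlap other listed genes and Slit2, Slit3 and Robo2 hold microRNA genes. These overlaps are of whole gene spans and were not checked exon by exon, except that the microRNA genes in Slit2 and Slit3 lie between exons. The strand setting of the counting is not given in the sources used here. Where exons overlap, reads of the neighbors therefore cannot be told apart from those of the members.

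Of the netrins, Ntn4, a netrin of basement membranes, passed. It was at 5.62, 5.85 and 4.34 CPM in control, 13.7, 13.7 and 11.8 in iHoxc9 (2.48-fold, adjusted p = 3.47e-05), and 11.3, 11.0 and 8.14 in iHoxc10 (1.92-fold, adjusted p = 0.0011). Both lines lay above control, and the iHoxc10 call was lost without control replicate 3 (adjusted p = 0.0107). Ntn1, the netrin of the floor plate, passed against control in none of the lines. It was at 401.6, 371.2 and 306.2 CPM in control, 553.6, 653.2 and 482.1 in iHoxc6, and 240.3, 319.7 and 220.3 in iHoxc9, and iHoxc6 and iHoxc9 differed (log2 1.11, standard error 0.24, adjusted p = 0.00223). Without iHoxc6 replicate 2, or without iHoxc9 replicate 1 or 3, that difference no longer passed (adjusted p at most 0.0145). The summed level of 5 floor plate markers moved with Ntn1 and Slit1: 148.9 to 197.4 CPM in control, 246.1 to 374.7 in iHoxc6, 223.2 to 258.7 in iHoxc8, 79.7 to 129.1 in iHoxc9 and 187.1 to 336.9 in iHoxc10. In iHoxc9, 3 of these 5 markers (Shh, Foxa1 and Ferd3l) were lower than in control. Their part in the Ntn1 and Slit1 values was not tested.

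The direct comparison of iHoxc9 with iHoxc10 neurons asks how a thoracic and a lumbar Hox gene differ, and it lies within 1 flow cell but between 2 lines. Of the 39 members, 8 passed (4.99% of all genes, 2.6% higher and 2.4% lower in iHoxc9), 4 higher and 4 lower in iHoxc9. Higher in iHoxc9 were Epha3 (3.63-fold, log2 1.86, standard error 0.21, adjusted p = 1.84e-06), Dcc (2.38-fold, adjusted p = 0.00296), Epha8 (2.22-fold, adjusted p = 0.00226) and Epha7 (1.63-fold, adjusted p = 0.00608). Lower in iHoxc9 were Draxin (5.25-fold, log2 -2.39, standard error 0.14, adjusted p = 1.14e-10), Unc5a (2.63-fold, adjusted p = 2.5e-05), Epha10 (2.19-fold, adjusted p = 0.00137) and Ephb1 (1.69-fold, adjusted p = 0.00244). For each of the 8 genes the 3 libraries of a line lay apart from the 3 of the other. Draxin was the only member past 4-fold (1.31% of all genes).

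Epha3, Unc5a and Draxin passed whichever of the 6 libraries was left out. The count of 8 became 4 without iHoxc9 replicate 1 (3.2% of all genes) and 5 without iHoxc9 replicate 2 (3.29%). Without iHoxc9 replicate 1, Dcc (adjusted p = 0.0159), Epha8 (0.0163), Ephb1 (0.02) and Epha7 (0.0283) did not pass. Epha7 was also lost without iHoxc9 replicate 2 or 3 or iHoxc10 replicate 2 or 3 (adjusted p at most 0.0772), Ephb1 without iHoxc9 replicate 2 or 3 or iHoxc10 replicate 1 (at most 0.0149), Epha8 without iHoxc10 replicate 2 or 3 (at most 0.0228), Dcc without iHoxc10 replicate 3 (0.037), and Epha10 without iHoxc9 replicate 2 (0.0106). Slit1 was just short of the threshold (log2 -1.10, adjusted p = 0.0106) and passed without iHoxc10 replicate 3 (log2 -1.32, adjusted p = 0.0069). In these 2 groups, libraries of the same number deviated together, and a fit of these 2 groups with the replicate number as a block passed 20 members, 7 higher and 13 lower in iHoxc9, where 27.6% of all genes passed, 14% higher and 13.7% lower. The 8 genes above were among the 20, and Slit1, Ntn1 and Neo1 were among the others, all lower in iHoxc9. The same fit without the block passed 15 members and 10.5% of all genes. Epha4 passed in neither.

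**Figure D3:**
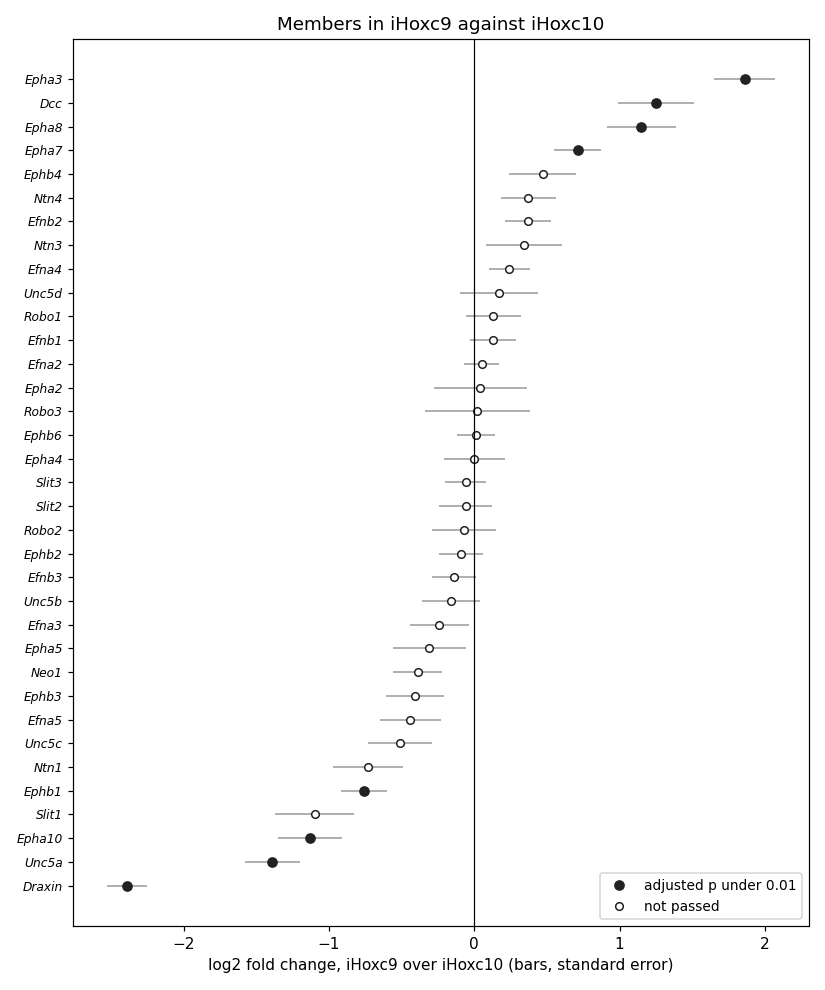
Log2 fold change of iHoxc9 over iHoxc10 neurons (x axis) of the members (y axis, ordered by value), with standard errors as bars. Filled points passed at an adjusted p under 0.01, and the 4 members under 1 CPM in every day 4 group are left out. The filled points are Epha3, Dcc, Epha8 and Epha7 on the right and Ephb1, Epha10, Unc5a and Draxin on the left, with Epha4 at 0.

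Markers of several cell types differed between the same lines. Of the 7 motor neuron markers 5 differed, 4 lower and Isl2 higher in iHoxc9. Sim1, a transcription factor of ventral interneurons, was at 17.1 ± 2.27 CPM in iHoxc9 and was higher there than in iHoxc10 by 1.68 on the log2 scale (adjusted p = 0.000295), the only one of 6 ventral interneuron markers to pass (list median -0.37), and none of 6 dorsal commissural markers passed. Of the 5 floor plate markers 4 were lower in iHoxc9, 2 of them past 4-fold. Among 3 neural crest and Schwann lineage markers, Sox10 was lower in iHoxc9 (0.135 ± 0.0652 against 1.07 ± 0.132 CPM, adjusted p = 0.00014). Among 7 ventral progenitor markers 2 were higher in iHoxc9 (Sox2 and Pax6), with sums of 551.3 to 603.5 and 383.2 to 419.3 CPM. The 6 pan-neuronal markers summed to 5827.0 to 6832.8 CPM in iHoxc9 and 6997.7 to 7973.6 CPM in iHoxc10. Their part in the differences of the guidance genes was not tested.

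Against iHoxc6, the brachial line, 12 members differed in iHoxc9 neurons (11.7% of all genes, 8.02% higher and 3.68% lower in iHoxc9), 9 higher and 3 lower in iHoxc9. The 3 that were lower in iHoxc9 were Unc5a, Slit1 and Ntn1. Past 4-fold were Epha3, Epha7, Dcc and Robo3, which were 6.60-fold, 6.65-fold, 4.81-fold and 4.97-fold higher in iHoxc9 (2.49% of all genes). Replicate numbers of these 2 groups were also taken as pairs, although their correlations were weak (0.142, 0.215 and 0.117). No label pairs these libraries and they ran on different flow cells, so the blocked fit is only an alternative and cannot show that they are pairs. The fit of the 2 groups with the block passed 23 members, including the 12. In it 34.6% of all genes passed, 18.7% higher and 15.9% lower in iHoxc9. Without the block the fit of the 2 groups already passed 31.4% of all genes. In iHoxc10 neurons 14 members differed from iHoxc6 (11% of all genes, 6.17% higher and 4.86% lower in iHoxc10), 13 higher and Epha8 lower in iHoxc10. Past 4-fold were Epha7 and Robo3 (1.27% of all genes). The 14 became 9 without iHoxc6 replicate 1 (6.06% of all genes) and 6 without iHoxc6 replicate 2 (5.34%). They became 7 without iHoxc10 replicate 1 (4.06%) and 8 without iHoxc10 replicate 2 (5.99%). The 2 past 4-fold became 0 without iHoxc10 replicate 2 (0.998%), and 1 without iHoxc10 replicate 1 (0.783%) or iHoxc6 replicate 2 (0.993%). Epha4 was lower in iHoxc6 than in either posterior line by 0.72 on the log2 scale, and no library overlapped (adjusted p = 0.0207 and 0.021). It passed in both comparisons with DESeq2 (adjusted p = 0.00967 and 0.00498) and when those 2 groups alone were fitted. In these comparisons flow cell, line and Hox gene cannot be told apart.

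Between day 2 progenitors and day 4 control neurons, 26 of 39 members passed (42.4% of all genes, 21.2% in each direction), 21 higher and 5 lower in control, and 9 changed more than 4-fold (12.6% of all genes). The day, the line and the flow cell differ together in this comparison. The largest increases were those of Epha10, from 0.842, 1.03 and 0.50 CPM to the control values given above (log2 5.05, standard error 0.29), and of Slit2, from 18.1, 27.2 and 12.7 CPM to 644.8, 681.5 and 547.0 CPM (log2 5.02, 0.21). Efna3 (log2 4.33), Unc5c (3.52), Slit3 (3.32), Epha5 (3.21), Epha8 (2.76) and Dcc (2.59) also rose past 4-fold. Epha1 fell by 4.14 on the log2 scale, from 1.28, 1.16 and 3.40 CPM to between 0.0749 and 0.128 CPM, a level of only a few counts. Epha4 rose from 25.1, 25.4 and 17.6 CPM, by 1.16 (standard error 0.22, adjusted p = 0.000108), and Ephb1 from 7.85, 8.42 and 13.9 CPM, by 1.65 (0.17, adjusted p = 1.63e-08). Motor neuron markers rose from 19.1 to 45.0 CPM in progenitors to 544.5 to 570.8 CPM in control over the same interval. Epha7, Unc5a, Neo1 and Unc5b, which changed in iHoxc9 or iHoxc10 neurons, did not pass here, with log2 fold changes of 0.15, 0.30, 0.30 and 0.22. Robo3, which also changed in those lines, did not pass either, at 2.77 ± 1.01 CPM in control and 4.2 ± 1.5 CPM in progenitors. Long genes moved with this comparison: genes spanning over 300 kb had a median log2 fold change of 0.98 and 58.1% were higher, and 10 of 10 members of that length were higher. With the span trend removed, Robo2 turned from 0.82 to -0.51 (adjusted p = 0.00893). The part of span in the other changes was not tested beyond that fit.

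Other genes of the same pathways, 49 intracellular effectors, co-receptors and co-ligands, were tested alongside. In iHoxc6 and iHoxc8 neurons 1 of them passed in each (Flrt3, lower, and Trim9, higher, both named after their values were seen), in iHoxc9 neurons 12 (10 higher, 2 lower), in iHoxc10 neurons 12 (11 higher, 1 lower) and between iHoxc9 and iHoxc10 neurons 5. None of them passed 4-fold in these 5 comparisons. By pathway, 3 of 19 Eph and ephrin effectors, 4 of 15 Slit and Robo effectors and 5 of 15 netrin effectors and co-ligands passed in iHoxc9, and 3, 5 and 4 in iHoxc10. These shares stand beside 14.1% and 14.4% of all genes, and 3 of 19 is close to them. With the stricter filter 19.4% and 20% of genes passed, closer to the 24.5% that 12 of 49 makes in each line. In iHoxc6, iHoxc8 and iHoxc9 against iHoxc10, 2.04%, 2.04% and 10.2% of the 49 passed. The shares of all genes there were 0.587%, 2.12% and 4.99%. Leaving out 1 library moved the iHoxc9 count of 12 to between 6 (without iHoxc9 replicate 3, 10.2% of all genes) and 16 (without control replicate 2, 19.7%). It was 7 without control replicate 3 (7.2%). The iHoxc10 count of 12 became 18 without control replicate 2 (18% of all genes). It became 7 without control replicate 1 (11.5%) or 3 (7.9%) or iHoxc10 replicate 1 (7.81%). Without control replicate 2 the iHoxc6 count became 9 (5.2% of all genes) and the iHoxc8 count 5 (7.52%). The iHoxc8 count became 2 without iHoxc8 replicate 2 (3.36%), and every other single omission gave 0 or 1. The count of 5 between iHoxc9 and iHoxc10 became 2 without iHoxc9 replicate 1 or 2, 3 without iHoxc9 replicate 3 or iHoxc10 replicate 1 or 3, and 4 without iHoxc10 replicate 2. In these fits of iHoxc9 against iHoxc10, 3.2% to 3.67% of all genes passed. The median log2 fold change of the 49 was 0.27 in iHoxc9 and 0.31 in iHoxc10.

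Many guidance genes are very long, and long genes were higher overall in the posterior lines and in control neurons against progenitors. Among genes at a mean of at least 1 CPM, those that span over 300 kb of the genome had a median log2 fold change against control of 0.35 (iHoxc8), 0.46 (iHoxc9) and 0.55 (iHoxc10), and those under 30 kb medians of -0.07, -0.10 and -0.13. Of these long genes, 34.8% were higher in iHoxc9 and 38.6% in iHoxc10, against 7 and 6 of 10 long members. The shift was within groups too: relative to the control mean, 415 long genes that are not members had a median of -0.19 in control replicate 3 and of 0.10 and 0.07 in the other controls, and of 0.08 in iHoxc8 replicate 2 against 0.41 and 0.46 in the other iHoxc8 libraries. These are the libraries in which Dcc, Robo1 and Robo2 were also low within their groups. In a fit with each library's trend with span removed, Epha3 (log2 2.02 in iHoxc9), Epha7 (2.56 in iHoxc9, 1.87 in iHoxc10), Dcc in iHoxc9 (1.73), Unc5a (-1.81) and Draxin in iHoxc10 (1.76) passed. Dcc in iHoxc10 (0.35, adjusted p = 0.233), Robo1 in iHoxc10, Robo2 in both posterior lines, Unc5c in iHoxc9 (0.67, adjusted p = 0.0142), Ntn4 in iHoxc10 (0.70, adjusted p = 0.0101), and Ephb1 in iHoxc8 (0.52, adjusted p = 0.0595) and iHoxc9 (0.45, adjusted p = 0.0531) no longer passed. In that fit Slit3 was lower than control by 0.77 in iHoxc8 and 0.86 in both posterior lines. The part of gene span in the changes of the members was not tested beyond this fit.

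**Figure D4:**
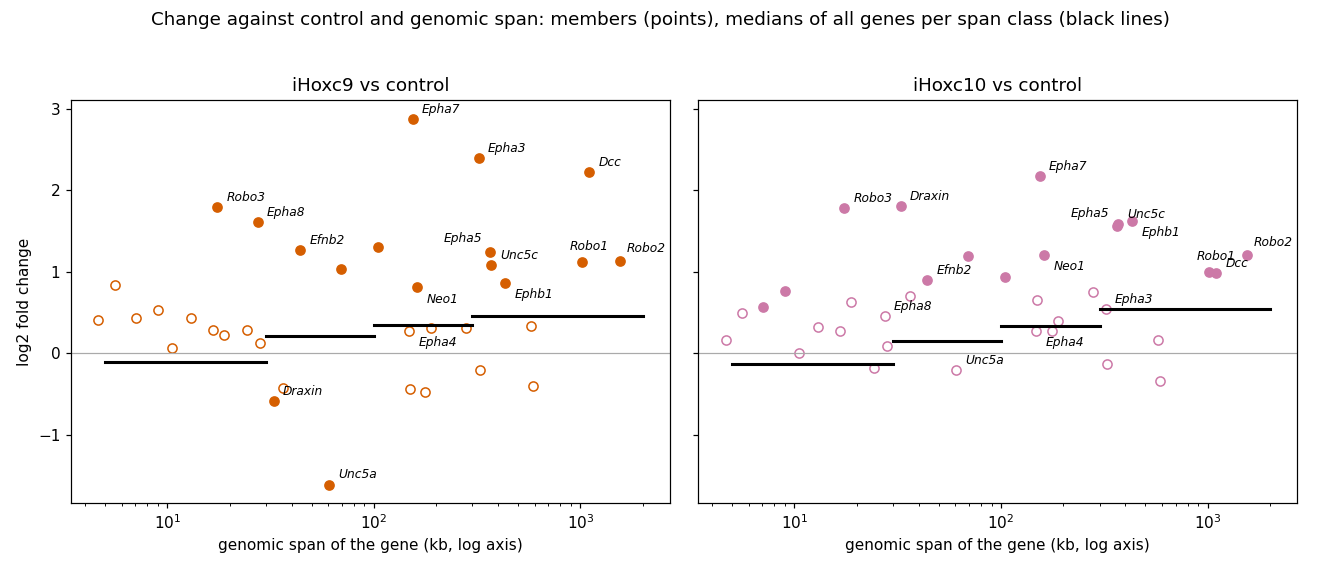
Log2 fold change against control (y axis) by genomic span in kb (x axis, log scale) for iHoxc9 (left) and iHoxc10 (right). Points are members, filled where they passed, without the 4 under 1 CPM in every day 4 group, and black lines are medians of all genes at 1 CPM or more in 4 span classes. The medians rise from -0.10 to 0.46 and from -0.13 to 0.55, and Epha7, Epha3 and Dcc in iHoxc9 lie far above them.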

How the data were processed

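Polyadenylated RNA of 18 libraries, 3 per group, was measured by RNA-seq (TruSeq stranded mRNA kit, single-end 75-base reads). The authors aligned reads to mm10 with STAR (2.7.0c, per the labels) and deposited raw counts per RefSeq gene, made with featureCounts in Rsubread. The strand setting of the counting is not given in the sources used here, so overlapping genes are uncertain. Other tools in the submitters' processing notes are DESeq2 1.20.0 and Picard 2.8.2.

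From the deposited counts, edgeR 4.0.16 (R 4.3.3) fitted all 18 libraries with TMM scaling and group as the only term (glmQLFit, glmQLFTest). A gene was tested if any iHox library held 1 or more reads of it (20944 of 27179). A gene passed at a Benjamini-Hochberg adjusted p under 0.01, and the 4-fold threshold was an absolute log2 fold change over 2. CPM values are counts scaled by the TMM-adjusted library size, standard errors are the log2 fold change divided by the square root of F, and tests are two-sided. Promoter and microRNA sequences are from RefSeq, GRCm38.p6.

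Values in every library are given for Epha4, Ephb1 and members that passed with an absolute log2 fold change over 1 against control or between iHoxc9 and iHoxc10 and reached 1 CPM in 1 of the groups compared. Other genes given so (Slit1, Ntn1, Ephb2) were picked after their values were seen. Of the other pathway genes, those past 4-fold were to be named. Of the marker lists, 4 genes are not reported here and were left out of the sums. The members and lists were chosen with earlier results of these data known. Alternatives were DESeq2 1.42.0, its size factors in edgeR, other filters, fits of 2 groups, replicate blocks and leaving out each library. The blocks of 2 groups and the removal of each library's lowess trend with genomic span (span 0.3) were chosen after seeing the data. On simulated counts for iHoxc9 against control (18995 genes, 200 changed by a log2 fold of 3) edgeR recovered 98.5% and DESeq2 97%, with 0 false calls. A gene counted there only past both thresholds, an adjusted p under 0.01 and 4-fold, so passes at smaller changes were not covered.

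Replicate numbers were checked for pairing by correlating the deviations of same-numbered libraries from their group means. The correlations were 0.579, 0.474 and 0.651 for iHoxc9 with iHoxc10 and 0.142, 0.215 and 0.117 for iHoxc6 with iHoxc9, so numbers were taken as pairs there. That choice was made from the data, since no label pairs the libraries. In the other comparisons not every correlation exceeded 0.1. For iHoxc6 with iHoxc10 they were 0.195, 0.232 and -0.046, with a mean of 0.127 against 0.158 for iHoxc6 with iHoxc9.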

Additional observations from a re-analysis of the deposited data

Results flagged for a closer look

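The effects against control of 8 members differed between iHoxc9 and iHoxc10 neurons, tested as the direct difference of the lines (edgeR, adjusted p under 0.01). As the effect in iHoxc9 minus that in iHoxc10 on the log2 scale, the differences were 1.86 for Epha3, 1.25 for Dcc, 1.15 for Epha8 and 0.71 for Epha7. They were -2.39 for Draxin, -1.39 for Unc5a, -1.13 for Epha10 and -0.76 for Ephb1. Draxin moved in opposite directions against control in these lines, and for Epha7, Dcc and Ephb1 the effects had the same direction and differed in size.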

How the results depend on the processing

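With DESeq2, 6 members passed in iHoxc8 (9.25% of all genes). With only the compared groups in the fit, 0 members passed in iHoxc6, 1 in iHoxc8, 15 between iHoxc9 and iHoxc10 and 21 between iHoxc6 and iHoxc9, where 0.22%, 0.831%, 10.5% and 31.4% of all genes passed. With the replicate block in fits of 2 groups the counts were 0, 0, 20 and 23, beside 0.0764%, 0.0382%, 27.6% and 34.6% of all genes. The numbers of iHoxc6 or iHoxc8 and control do not pair libraries, and with 1 block term over all 18 libraries no count of members moved by over 1.5 times. At a fold threshold of 1 in place of 2 on the log2 scale, 1, 1, 13 and 9 members were counted in iHoxc6, iHoxc8, iHoxc9 and iHoxc10, 6 between iHoxc9 and iHoxc10, 10 and 8 for iHoxc6 against iHoxc9 and iHoxc10, and 20 for control against day 2. The shares of all genes at that threshold were 0.482%, 1.36%, 7.81%, 6.86%, 3.35%, 6.66%, 4.91% and 28.5% in the same order. With the span trend removed, 0 members passed 4-fold in iHoxc10 (1.26% of all genes) and 1 for iHoxc6 against iHoxc10 (1.2%), where no filter also gave 1 (0.942%). In that span fit Robo2 turned from an increase to -0.51 for control against day 2. The causes were not tested.

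Of the 49 other pathway genes, DESeq2 passed 4 in iHoxc6 (3.84% of all genes), 2 in iHoxc8 (9.25%) and 9 between iHoxc9 and iHoxc10 (8.87%). Fits of 2 groups passed 0, 0, 6 and 12 in iHoxc6, iHoxc8, iHoxc10 and iHoxc9 against iHoxc10, and with the block 0, 0, 4 and 28. The shares of all genes were 0.22%, 0.831%, 10.7% and 10.5% without the block and 0.0764%, 0.0382%, 7.93% and 27.6% with it. With the span trend removed 3, 0 and 7 passed in iHoxc6, iHoxc8 and iHoxc10 (0.754%, 1.67% and 12.8% of all genes). In iHoxc8 either other filter and the block over all libraries gave 0. The shares of all genes there were 2.14% with the stricter filter, 1.71% with no filter and 1.62% with the block.

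Leaving out 1 library at a time, members passing numbered 0 to 4 in iHoxc6, 1 to 7 in iHoxc8, 12 to 19 in iHoxc9, 11 to 16 in iHoxc10, 4 to 7 between iHoxc9 and iHoxc10, 9 to 10 and 6 to 12 for iHoxc6 against iHoxc9 and iHoxc10, and 22 to 27 for control against day 2. Past 4-fold the ranges were 0 to 0, 0 to 0, 3 to 3, 1 to 2, 1 to 1, 3 to 4, 0 to 3 and 9 to 12. Other pathway genes ranged over 0 to 9, 0 to 5, 6 to 16, 7 to 18 and 2 to 4 in the first 5 comparisons. Without control replicate 2 the share of all genes went from 0.587% to 5.2% in iHoxc6 and from 2.12% to 7.52% in iHoxc8. Over the single genes and all alternatives, 1859 values kept direction and side of the threshold, 118 no longer passed, 38 newly passed and 1 reversed. Depth limits values near 0.122 CPM.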
